A study of Mus musculus with 721 samples.

Results

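Glucagon and insulin are the hormones that define the alpha and the beta cells of the pancreatic islet. Both cell types arise in the embryo from precursors that switch on Neurog3 for a short time. Alpha cells are known for the factors Irx1, Irx2 and Pou3f4, beta cells for Pdx1, Nkx6-1 and Mafa, and cells that hold both hormones have long been described in the early pancreas.

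The double cells described here were sorted cells with at least 100 FPKM of the glucagon gene Gcg and at least 100 FPKM of an insulin gene, Ins1 or Ins2. They were set against cells that passed the same level for glucagon alone (Gcg-only) or for an insulin gene alone (Ins-only). FPKM is the deposited expression unit, fragments per kilobase of transcript. Of 721 cells, 658 passed minimums of 100000 fragments and 1500 detected genes (1 FPKM or more), and 125 of these held a hormone at that level: 17 double, 51 Gcg-only and 57 Ins-only cells. The classes were chosen by the measured levels of Gcg, Ins1 and Ins2, which are given as a description only.

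The cells were taken from the pancreas of mouse embryos of a Neurogenin 3-eGFP line, in which a green fluorescent protein reports Neurog3, the factor that commits cells to the endocrine fate. Single fluorescent cells were sorted at E11.5, E12.5, E13.5, E14.5 and E15.5 and sequenced with a SMART-seq protocol in 2 runs, which gave 8 sets, each an embryonic day in a run. All groups share this reporter, no treatment was named, and the labels tie no cell to an animal. A p-value over sets therefore measures the spread between sets, which may be technical. The eGFP transcript reached 1 FPKM in 3 of 17 double, 8 of 51 Gcg-only and 3 of 57 Ins-only cells.

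To show what the rule reads out, the 150 bases upstream of the RefSeq start (build GRCm38.p6) of the glucagon gene and of the one insulin gene in the promoter table are printed 5′ to 3′, with the homeodomain core TAAT on either strand in capitals. Pdx1, Nkx6-1 and Pax6 are homeodomain factors. The Gcg window is chr2:62483654-62483803 on the minus strand and the Ins1 window is chr19:52264147-52264296 on the plus strand.
Gcg: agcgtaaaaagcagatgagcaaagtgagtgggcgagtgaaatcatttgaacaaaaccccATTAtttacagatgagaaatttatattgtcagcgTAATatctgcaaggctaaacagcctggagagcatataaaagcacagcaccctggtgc
Ins1: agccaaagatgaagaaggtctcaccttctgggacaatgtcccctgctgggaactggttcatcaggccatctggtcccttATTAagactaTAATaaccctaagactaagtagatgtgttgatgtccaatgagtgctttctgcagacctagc
Each window held 2 such cores. Of 32851 promoter windows of the same length, 37.8% held at least 1 and 16.2% at least 2. A match is a description of the letters and not of a bound site.

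Several features of the data bear on every result. The deposited values rise with depth: the values of a cell summed to 134056 to 4509273 FPKM over the kept cells, and log sum and log fragments correlated at r = 0.928 over 658 cells, which share 2 runs. In the second run, 12495 of 18734 genes had the same lowest value above 0 (within 0.01%) in 3 or more cells whose fragments spanned a median of 4.53-fold. The values are thus not divided by the depth of each cell, and some results are also given after rescaling each cell to the same sum. After rescaling, 15 of the 17 double cells kept their class; the 2 that did not were both double cells of E15.5 run 2. In addition, 4 wells stood apart, each with the most genes of its set and a correlation of at least 0.7 with a cell of another set. They were 2 Gcg-only wells, of E12.5 run 1 and E13.5 run 1 (r = 0.817 with each other), and 2 double wells, of E14.5 run 1 and E14.5 run 2 (r = 0.837), and 3 of the 4 carried the same index pair. The double well of E14.5 run 2 held 12309 genes, against 7400 in the next cell of its set, and was the closest match of 84 of its 84 set mates. Some results are also given without these wells, and values not marked so include them. Fragments per cell ran from 143605 to 1990000 (median 596427) in double cells, with medians of 658061 in Gcg-only and 588408 in Ins-only cells. Of the 17 double cells, 1 held both Xist and a Y-linked gene, as did 1 Gcg-only and 0 Ins-only cells; whether a well held 2 cells was not tested.

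The 17 cells carried endocrine RNA. Chga, a granule protein of all endocrine cells, ran from 80.7 to 19071 FPKM in them. The leukocyte gene Ptprc reached at most 2.21 FPKM and the acinar gene Cpa1 at most 3.75 FPKM, but other markers of these lists ran higher. The leukocyte gene C1qa was at 10 FPKM or more in 4 of 17 double, 6 of 51 Gcg-only and 21 of 57 Ins-only cells, with a highest value of 507 FPKM in double cells. The acinar gene Clps was at 100 FPKM or more in 10 of 17 double, 30 of 51 Gcg-only and 20 of 57 Ins-only cells, with a highest value of 5314 FPKM in double cells. The 10 leukocyte markers summed to 0 to 551 FPKM in double cells (median 2.21), 0 to 948 in Gcg-only and 0 to 312 in Ins-only cells, with 3 of the 10 at 0 in every double cell. No double cell had 3 or more of 12 acinar markers at 10 FPKM or more, against 7 of 51 Gcg-only and 5 of 57 Ins-only cells. The summed acinar markers had a median of 196 FPKM in double cells (0 to 5461), 410 in Gcg-only and 63.7 in Ins-only cells, with 4 of the 12 at 0 in every double cell. The part of these markers in the results was not tested. The 7 erythroid markers summed to at most 5.28 FPKM in any double cell, with 6 of them at 0 in all. No double cell had 3 leukocyte, endothelium or mesenchyme markers at that level, and 3 had 3 duct markers, as did 17 Gcg-only and 15 Ins-only cells. Of these lists, the tested genes had median differences from Ins-only cells of -0.02 log2 (7 acinar), 0.19 (6 duct), 0.03 (6 leukocyte) and 0.23 (3 mesenchyme), and from Gcg-only cells of 0.12, 0.09, -0.13 and -0.47 log2. The tested endothelium gene, Egfl7, was 2.99 ± 0.72 log2 above Ins-only and 0.54 ± 0.77 log2 above Gcg-only cells (adjusted p = 0.117 and 0.977, limma, in the fit described below).

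The levels of the defining hormones in double cells were mostly lopsided. Glucagon ranged from 184 to 264470 FPKM (median 13846), Ins2 from 0 to 676374 (median 377) and Ins1 from 0 to 37795. Glucagon was the higher hormone in 12 cells and insulin in 5. The higher hormone exceeded the lower by a median of 31.1-fold (111.9-fold without the wells that stand apart), by at least 10-fold in 10 cells and by at least 100-fold in 8. At one end, a cell of E15.5 run 2 held 676374 FPKM of Ins2 and 184 of Gcg. At the other, a cell of E15.5 run 1 held 264470 FPKM of Gcg and 673 of Ins2. The hormones differed by less than 10-fold in 7 cells (5 without the wells that stand apart). Closest to equal was a cell of E15.5 run 1, with 386 FPKM of Gcg and 377 of Ins2. Next came a cell of E14.5 run 2, with 1474 and 1196, and a cell of E13.5 run 1, with 1375 and 1803. A cell of E14.5 run 1 was high in both, with 22379 FPKM of Gcg and 12718 of Ins2.

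**Figure D1:**
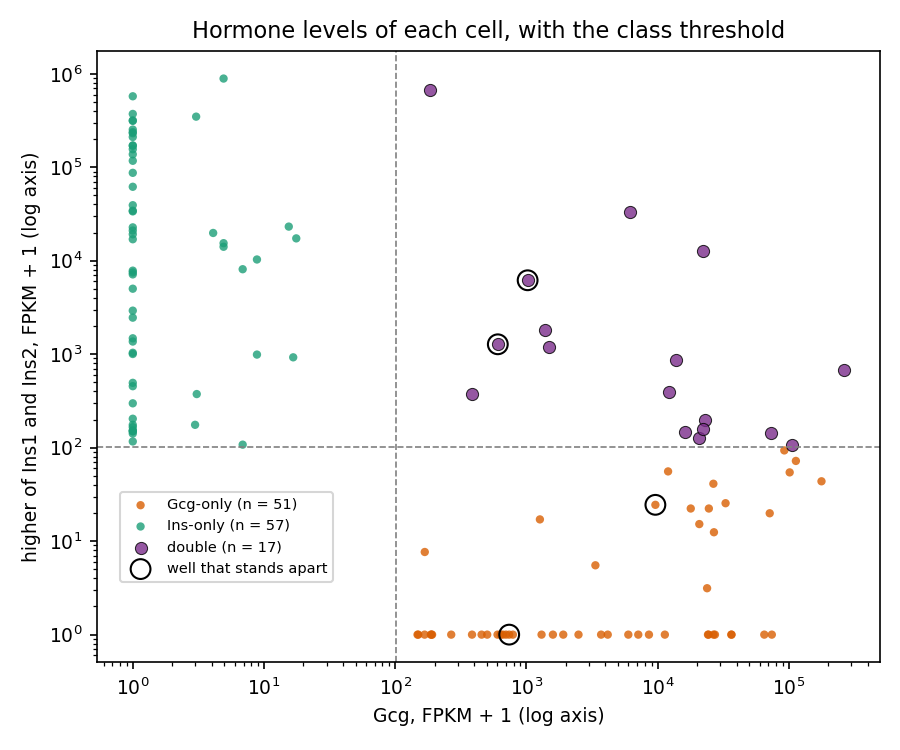
Each point is 1 cell, placed by Gcg (x axis) and by the higher of Ins1 and Ins2 (y axis), both as FPKM + 1 on log axes; colours give the 3 classes, dashed lines the threshold of 100 FPKM and rings the 4 wells that stand apart. Many double cells lie just above the insulin threshold, and 5 of the 17 have more insulin than glucagon RNA.

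Insulin in these cells came mainly from Ins2. Of the 17 double cells, 10 passed the threshold with Ins2 alone, 2 with Ins1 alone and 5 with both, beside 29, 3 and 25 of the 57 Ins-only cells. The 2 cells with Ins1 alone had no Ins2 value above 0. In single-hormone cells the other hormone was usually missing: both insulin genes were at 0 in 34 of 51 Gcg-only cells, and Gcg at 0 in 43 of 57 Ins-only cells. The gap at the threshold was uneven. The lower hormone of the double cells nearest to it was 106.7, 124.7 and 142.9 FPKM, and the cells just outside held 92.5, 71.1 and 60.4 FPKM. Between 10 and 100 FPKM of the other hormone were found in 14 Gcg-only cells, with a highest value of 92.5, but in 3 Ins-only cells, with a highest value of 16.6. Most of these 14 were of E15.5, where Gcg-only cells had an Ins2 median of 21.3 FPKM. At earlier days no Gcg-only cell held more than 23.5 FPKM of an insulin gene. Of the cells nearest the threshold, those at 106.7, 92.5, 71.1 and 60.4 FPKM were of E15.5. In cells with the leukocyte gene Ptprc at 10 FPKM or more, Gcg reached 1 FPKM in 14 of 48 but 100 FPKM in 0 of 48. That 0 allows a share of up to about 6.25% (3 of 48, an approximate limit). An insulin gene reached 100 FPKM in 1 of these 48, at 210516 FPKM. The endothelial gene Pecam1 was at 10 FPKM or more in 32 cells. Gcg reached 100 FPKM in 1 of these, at 739 FPKM in the E12.5 well that stands apart. An insulin gene did so in 0 of 32, which allows a share of up to about 9.38% (3 of 32, an approximate limit).

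Double cells were present at every embryonic day. E11.5 held 2 double, 3 Gcg-only and 0 Ins-only cells. E12.5 held 1, 5 and 2. E13.5 held 1, 4 and 4 in run 1 and 0, 14 and 0 in run 2. For 0 of 14 the 95% exact binomial interval of the double share was 0 to 23.2%. The first run of E14.5 held 4, 6 and 4 and the second 3, 5 and 10. The first run of E15.5 held 4, 3 and 16 and the second 2, 11 and 21. At E11.5, 2 of 2 cells with an insulin gene at the threshold thus also held glucagon (95% exact binomial interval 15.8 to 100%, counting error only). At E15.5 it was 6 of 43 (interval 5.30 to 27.9%). Double cells made up 13.6% of all hormone cells (interval 8.13 to 20.9%). Their share among hormone cells changed by -1.94 percentage points per day within runs (exact permutation of days within runs, two-sided p = 0.617, 8 sets), and by 3.14 points per day without E11.5. No trend of the share with day was detectable in these sets.

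**Figure D2:**
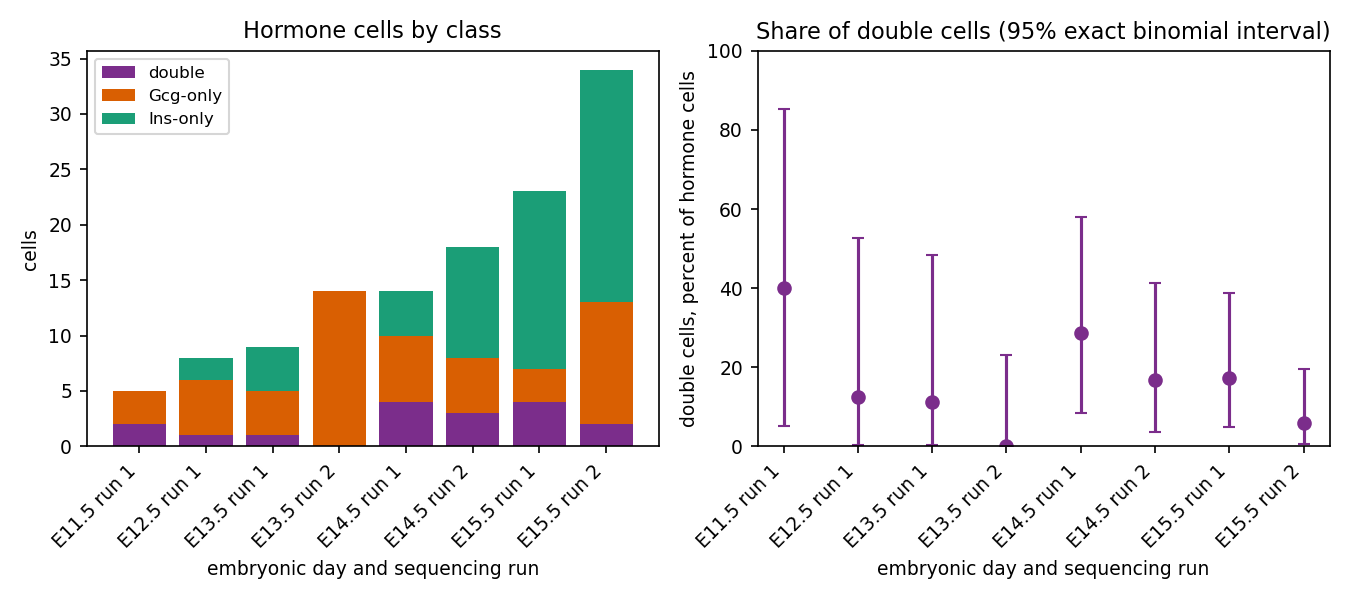
Left, cells of each class (bars, number of cells) in the 8 sets of embryonic day and run; right, double cells as a percent of hormone cells with 95% exact binomial intervals. Ins-only cells grow in number towards E15.5, while the intervals of the double share overlap in all sets.

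Across genes that the rule did not use, double cells carried genes of both lineages. Of 12 alpha genes in the files, a double cell had 5 to 10 (median 7) at 10 FPKM or more, a Gcg-only cell 3 to 11 (median 8) and an Ins-only cell 0 to 9 (median 4). Of 20 beta genes, a double cell had 3 to 13 (median 7), a Gcg-only cell 1 to 8 (median 4) and an Ins-only cell 1 to 16 (median 11). More alpha than beta genes were found in 44 of 51 Gcg-only cells and 6 of 57 Ins-only cells, and in 8 of 17 double cells, with 8 showing the opposite and 1 a tie. These medians were 7 and 7 in the 15 double cells other than the wells that stand apart. Since the values rise with depth, so can these counts, and the median fragments of the classes are given above. The beta list is also the longer, 20 genes against 12, so a raw count can more easily show more beta than alpha genes. These counts also pool the days. Each double cell of E11.5, E12.5 and E13.5 had more alpha than beta genes (8 and 3, 7 and 4, 8 and 5, 6 and 3). Double cells with more beta genes were all of E14.5 or E15.5, days at which both kinds were found. The Ins-only cells of E12.5 and E13.5 had at least as many alpha as beta genes.

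**Figure D3:**
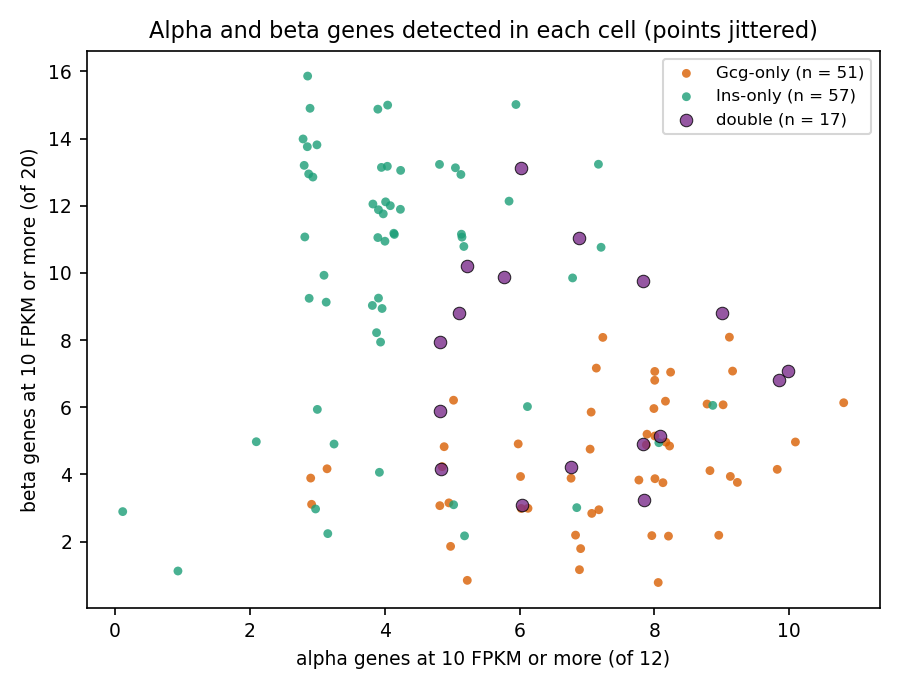
Each point is 1 cell, placed by how many of 12 alpha genes (x axis) and 20 beta genes (y axis) reached 10 FPKM, with a small random offset to separate points. Double cells spread from the Gcg-only to the Ins-only range, with medians of 7 alpha and 7 beta genes.

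Class means were compared with limma: log2(FPKM + 1) was averaged over the cells of a class in a set, weighted by the number of cells, with set as a block, over 14667 genes with a mean of at least 1 FPKM and the 7 sets with a double cell (6 of which had Ins-only cells). The rule genes were left out. Against Ins-only cells, 6 genes were past an adjusted p of 0.05 (limma, Benjamini-Hochberg), 0.0409% of the genes tested, and all 6 were higher in double cells; 1366 genes (9.31%) had an unadjusted p under 0.05, 1159 of them higher (7.9% of all genes) and 207 lower (1.41%). This balance depended on the averaging: with the log of the mean over cells, 282 of 1130 such genes were higher, against Gcg-only cells 132 of 814 and against the mean of both 137 of 743. Against Gcg-only cells, 0 genes passed (limma; 0% of the genes tested), with 775 (5.28%) at an unadjusted p under 0.05, of which 530 were higher (3.61%) and 245 lower (1.67%). Against the mean of both classes 0 genes passed as well (limma), with 848 (5.78%) at an unadjusted p under 0.05, 733 higher (5%) and 115 lower (0.784%). The median difference over all genes was 0.18 log2 against Ins-only and 0.07 against Gcg-only cells.

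Slc38a5, an amino-acid transporter known from alpha cells, was the most significant of the 6 (chrX:8271151-8280179 in mm10). Its level was 863 to 34209 FPKM in double cells (median 10598), 22.8 to 85438 in Gcg-only cells (median 8521) and 1.04 to 24035 in Ins-only cells (median 2379). The ranges overlapped, but its mean was higher in double than in Ins-only cells in 6 of 6 sets. The difference was 2.53 ± 0.38 log2 (SE, adjusted p = 0.00991, limma). Against Gcg-only cells it was 0.14 ± 0.41 log2 (adjusted p = 0.987, limma).

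Wnk3, a kinase that regulates ion transport (chrX:151198078-151471842), was found in all 17 double cells, at 3.21 to 279 FPKM (median 88.6). In Gcg-only cells it ran from 0 to 587 FPKM (median 58.6) and in Ins-only cells from 0 to 109 (median 0.829). Double cells were higher than Ins-only cells by 3.76 ± 0.60 log2 (SE, adjusted p = 0.00992, limma), again in 6 of 6 sets. Sct, the gene of the gut hormone secretin (chr7:141278331-141279133), had 41.6 to 4150 FPKM in double cells (median 492.7), 0 to 2472 in Gcg-only cells (median 319) and 0 to 4186 in Ins-only cells (median 48.8). Its difference from Ins-only cells was 3.74 ± 0.66 log2 (adjusted p = 0.0278, limma, higher in 6 of 6 sets). Every double cell held at least 41.6 FPKM of it, while 23 of 57 Ins-only cells were under 1 FPKM. By day from E12.5 to E15.5, Ins-only medians were 969, 1298, 43.3 and 0 FPKM, and double medians 2341, 1193, 354 and 286.5. At E13.5 the mean log2(FPKM + 1) was 10.22 in the 1 double cell and 10.15 in Ins-only cells.

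Prdx4, a peroxidase of the endoplasmic reticulum (chrX:155323918-155338474), ran from 0 to 474 FPKM in double cells (median 104) and from 0 to 574 in Ins-only cells (median 0). It reached 1 FPKM in 16 of 17 double, 39 of 51 Gcg-only and 20 of 57 Ins-only cells. The difference from Ins-only cells was 3.92 ± 0.62 log2 (SE, adjusted p = 0.00992, limma). The remaining 2 genes, Tmsb15b1 and Tmsb15b2, are near-identical thymosin genes listed at the same locus (chrX:136954988-136976874), so how reads were split between them is uncertain; they were higher by 3.92 and 2.84 log2 (adjusted p = 0.0278 for both, limma). Their levels and those of the other 4 genes differed from Gcg-only cells by 0.04 to 1.60 log2, with no call.

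These 6 calls depended on the sets. With values and classes rescaled to equal sums 0 genes were called (lowest adjusted p = 0.0571, limma; 1016 at an unadjusted p under 0.05), and with the double cells kept as they were and values rescaled without the 3 rule genes, 5 were. Without E15.5 run 1 or without E15.5 run 2 there were 0, and without E13.5 run 1 there were 21. Without the 4 wells that stand apart 13 genes were called, all 6 among them. Slc38a5 stayed higher in every one of these fits, by 1.42 to 3.00 log2 over all settings tried. Of the 6 genes, 5 lie on the X chromosome, on which 513 of the tested genes lie. Among these 5, Tmsb15b1 and Tmsb15b2 are listed at the same locus, so they may not be separate calls. Of these 513, 11.7% were higher than in Ins-only cells at an unadjusted p under 0.05, against 7.76% of the genes of all other chromosomes, and their median difference from Ins-only cells was 0.23 log2, against 0.18 for those others. The classes differed in sex: Xist without a Y-linked gene was found in 8 of 17 double, 29 of 51 Gcg-only and 17 of 57 Ins-only cells, and a Y-linked gene without Xist in 8, 21 and 39. Its part in these calls was not tested.

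**Figure D4:**
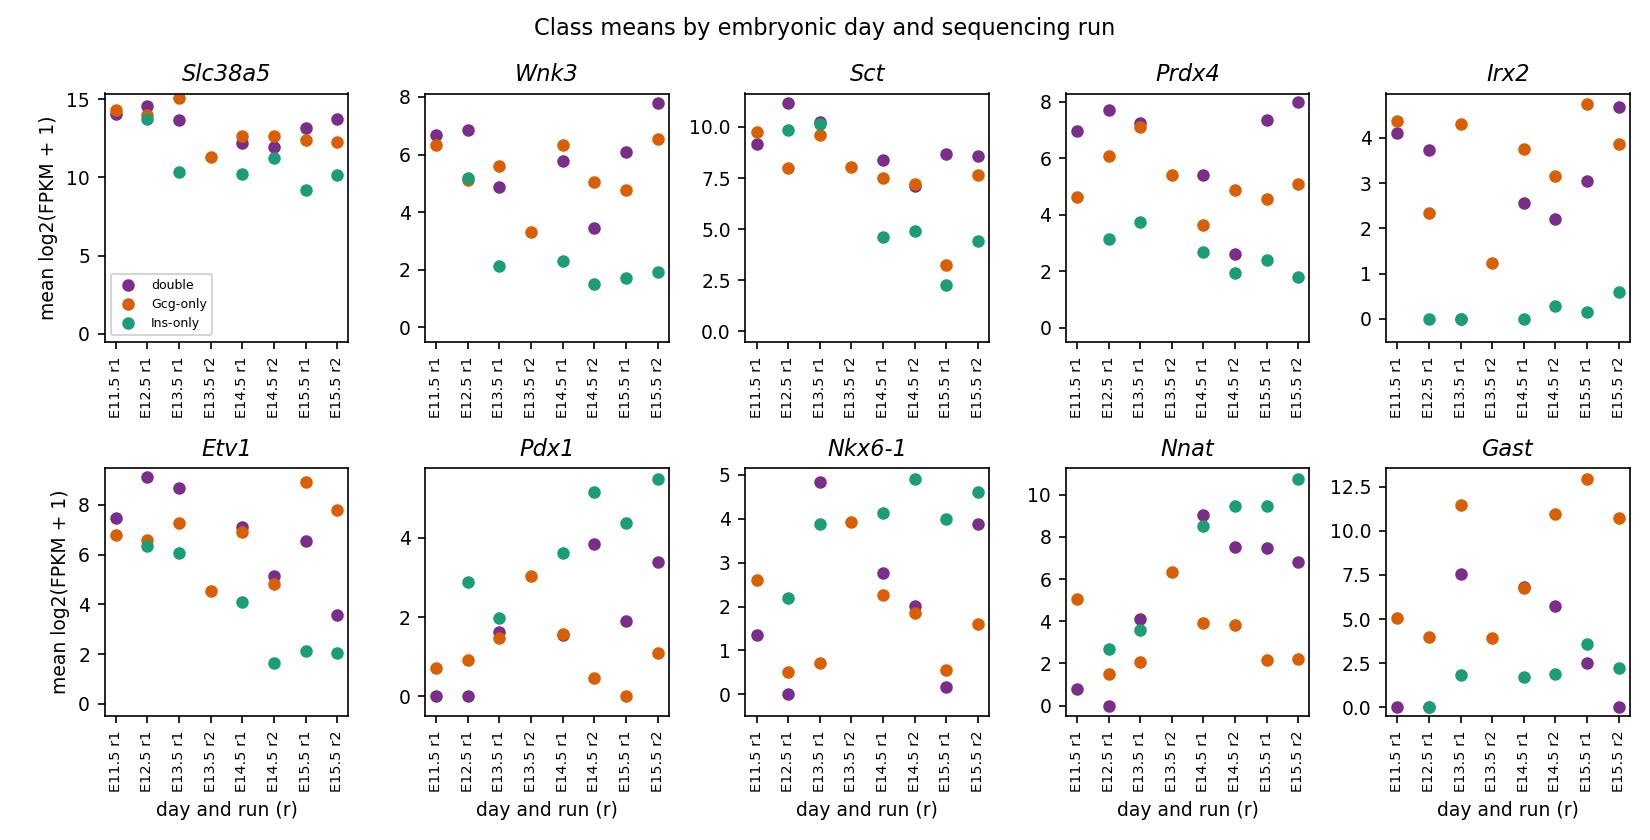
Points are class means of log2(FPKM + 1) in each of the 8 sets (x axis; r, run) for 4 of the called genes and 6 others described in the text; a class without cells in a set has no point. Slc38a5, Wnk3, Sct and Prdx4 are higher in double than in Ins-only cells in all 6 sets with both, and Pdx1 is lower in all 6.

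The alpha genes as a list were near their Gcg-only level in double cells and above their Ins-only level. This list and the others were written with earlier results of these data known. The median of its 12 tested genes was -0.25 log2 against Gcg-only cells (all genes, 0.07), with 0 at an unadjusted p under 0.05, and 2.29 log2 against Ins-only cells (all genes, 0.18). The first of these turned to 0.87 log2 with a class threshold of 10 FPKM and to 0.04 with day as the unit. All 12 were higher than in Ins-only cells, 2 of them past the adjusted threshold (Slc38a5 and Wnk3) and 9 at an unadjusted p under 0.05 in the higher direction, which 7.9% of all genes reached. Irx2, a homeodomain factor of alpha cells, reached 1 FPKM in 13 of 17 double, 33 of 51 Gcg-only and 6 of 57 Ins-only cells, with a difference of 2.69 ± 0.55 log2 from Ins-only cells (adjusted p = 0.0641, limma, higher in 5 of 6 sets). Etv1, an ETS factor, had medians of 140.5, 140.6 and 2.61 FPKM and a difference of 3.65 ± 0.72 log2 (adjusted p = 0.062, limma). Pou3f4, a POU factor of alpha cells, had medians of 31.9, 70.5 and 0 FPKM and differed by 2.61 ± 0.81 log2 (adjusted p = 0.269, limma); it and Etv1 were named after their values were seen. Ttr, the thyroid hormone carrier transthyretin, had medians of 2035, 2407 and 1337 FPKM and differed from Ins-only cells by 2.05 ± 0.46 log2 (adjusted p = 0.0982, limma).

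Over all sets, the beta genes as a list lay between their levels in the single classes, which was not so in each set (values by stage are given below). The median of 18 tested genes was 1.10 log2 against Gcg-only cells, with 5 at an unadjusted p under 0.05 and higher (3.61% of all genes were), and -1.01 log2 against Ins-only cells, with 7 at an unadjusted p under 0.05 and lower (1.41% of all genes were). None passed the adjusted threshold in either comparison (limma). All 18 were above their Gcg-only level, and 13 of 18 below their Ins-only level. Rescaled to equal sums with the classes rebuilt, the medians were 0.74 and -0.70 log2. Against Gcg-only cells the median was 0.61 log2 without E15.5 run 2 and 0.63 without E14.5 run 1. Against Ins-only cells it was -0.65 log2 without E15.5 run 1 and -0.38 with a class threshold of 10 FPKM.

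Pdx1, the factor that drives insulin transcription, ran from 0 to 110.2 FPKM in double cells (median 2.11), from 0 to 73.5 in Gcg-only cells (median 0) and from 0 to 296 in Ins-only cells (median 38.4). It was lower in double than in Ins-only cells in 6 of 6 sets, by -2.33 ± 0.62 log2 (adjusted p = 0.174, limma). Nkx6-1, needed for beta cells, had medians of 3.26, 3.26 and 22.8 FPKM and differed from Ins-only cells by -2.43 ± 0.58 log2 (adjusted p = 0.114, limma). Without the wells that stand apart the double cells' medians were 0.843 FPKM for Pdx1 and 0.548 for Nkx6-1. Sytl4, the granule protein granuphilin, reached 10 FPKM in 5 of 17 double, 1 of 51 Gcg-only and 42 of 57 Ins-only cells. The glucose transporter gene Slc2a2 did so in 1, 3 and 30 cells. Both are genes of maturing beta cells, and their differences from Ins-only cells were -3.14 ± 0.81 and -2.58 ± 0.76 log2 (adjusted p = 0.162 and 0.238, limma). Mafa, the factor of mature beta cells, was listed at 0 in every double and Gcg-only cell and reached at most 1.98 FPKM in an Ins-only cell, so it was not tested.

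Other beta genes stood further from their Gcg-only level, without passing the test. Nnat, an imprinted protein of the endoplasmic reticulum, had medians of 107 FPKM in double, 14.9 in Gcg-only and 1728 in Ins-only cells. Its difference from Gcg-only cells was 3.14 ± 1.06 log2 (adjusted p = 0.923, limma). Gng12, a G protein subunit named after its values were seen, had medians of 139.7, 40.3 and 283 FPKM and differed from Gcg-only cells by 2.86 ± 0.69 log2 (adjusted p = 0.923, limma). Iapp, the gene of the amyloid peptide that is released with insulin, ran from 0 to 221655 FPKM in double cells. Its medians were 718, 219 and 5275 FPKM, and neither difference passed (0.80 ± 1.25 and 1.28 ± 1.16 log2, adjusted p = 0.982 and 0.76, limma).

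**Figure D5:**
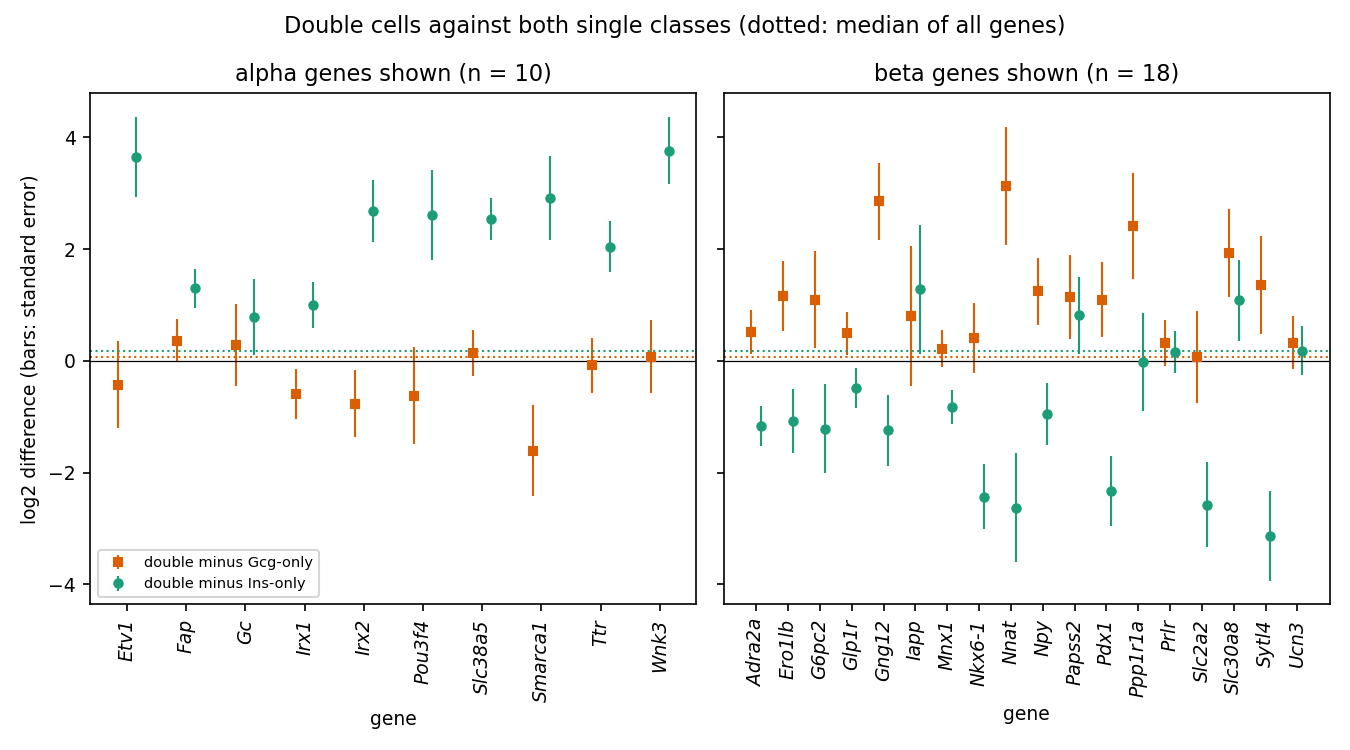
Log2 differences (points) with standard errors (bars) of 10 of the 12 tested alpha genes (left) and the 18 tested beta genes (right), double minus Gcg-only (squares) and double minus Ins-only (circles); dotted lines are the medians of all genes. Over all 12 tested alpha genes the medians are -0.25 against Gcg-only and 2.29 against Ins-only cells, and over the beta genes 1.10 and -1.01.

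Factors of both fates were found together in some double cells, and also in some cells of both single classes. At 1 FPKM or more, Irx2 and Pdx1 were both present in 7 of 17 double, 10 of 51 Gcg-only and 3 of 57 Ins-only cells. Irx2 and Nkx6-1 were both present in 6, 15 and 5 cells. At 10 FPKM or more, Irx2 and Pdx1 shared 2 of 17 double cells, 4 of 51 Gcg-only cells and 0 of 57 Ins-only cells. Irx2 and Nkx6-1 shared 1 of 17 double, 4 of 51 Gcg-only and 0 of 57 Ins-only cells at that level. Without the 2 double wells that stand apart, Irx2 and Pdx1 shared 6 of 15 cells and Irx2 and Nkx6-1 5 of 15 at 1 FPKM or more.

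The double cells varied by which hormone led. This split uses the rule genes and is a description. In the 12 cells with more glucagon, Irx2 had a median of 17.4 FPKM and reached 1 FPKM in 11, while Nkx6-1 reached 1 FPKM in 4 and Pdx1 in 5 (highest 14.2). In the 5 cells with more insulin, Irx2 reached 1 FPKM in 2 (highest 8.53), Nkx6-1 in 5 (4.94 to 50.5 FPKM) and Pdx1 in 4 (highest 110.2). Of these 5, 2 are wells that stand apart. The split was not balanced by day. The double cells of E11.5 and E12.5 all had more glucagon, with Pdx1 at 0, while those with more insulin were of E13.5 to E15.5. Slc38a5 had medians of 13654 FPKM in the first group and 2734 in the second (10598 in its 3 other cells), and Wnk3 102.5 and 28.4 (61.8 in the 3), with every one of the 17 cells above 3 FPKM of Wnk3. The cell with the most Ins2 held Pdx1, Nkx6-1, Slc2a2 and Sytl4 at 110.2, 50.5, 114 and 383 FPKM. Its values summed to 4509273 FPKM, the most of all kept cells, and it lost its double class after rescaling.

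Other hormones were common in double cells. Pyy, peptide YY, which early islet cells make with glucagon, was found at 10 FPKM or more in 16 of 17 double, 45 of 51 Gcg-only and 51 of 57 Ins-only cells, with medians of 6975, 7097 and 3278 FPKM. Of the list of other hormones, 8 were tested, with medians of 0.52 log2 against Gcg-only and 1.87 against Ins-only cells and Sct as the call against the latter. Sst, the delta cell hormone somatostatin, was at 10 FPKM or more in 4 of 17 double, 0 of 51 Gcg-only and 3 of 57 Ins-only cells. The 4 double cells include the E14.5 run 2 well that stands apart, at 97.9 FPKM. They also include the double cell with both Xist and a Y-linked gene, at 26.7 FPKM. The highest Sst value was 52948 FPKM. That value lay in a cell of E15.5 run 1 with 337775 FPKM of Pyy and 73812 of Iapp, in which Gcg was at 386 and Ins2 at 377 FPKM. The Sst differences were 1.70 ± 0.42 log2 from Gcg-only and 1.47 ± 0.39 log2 from Ins-only cells (adjusted p = 0.923 and 0.174, limma). Pyy and Sst were named after their values were seen.

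Gast, the gene of gastrin, had the lowest p against Gcg-only cells and was likewise named after its values were seen. It ran from 0 to 1578 FPKM in double cells (median 0), from 0 to 31567 in Gcg-only cells (median 328) and from 0 to 3665 in Ins-only cells (median 0). It reached 1 FPKM in 7 of 17 double, 40 of 51 Gcg-only and 22 of 57 Ins-only cells. The difference was -5.61 ± 1.03 log2 (adjusted p = 0.217, limma), lower in 6 of 7 sets, and largest at E15.5, with -10.4 log2 in run 1 and -10.7 in run 2. Without the 4 wells that stand apart it passed at -6.26 log2 (adjusted p = 0.0497, limma), without E14.5 run 1 at -7.17 log2 (adjusted p = 0.00446, limma), and with values and classes rescaled it was -4.54 log2 (adjusted p = 0.906, limma). With a class threshold of 10 FPKM its direction turned, to 0.80 log2.

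Precursor and endocrine factors showed no call in either comparison (limma). Of 15 tested precursor genes, 4 were at an unadjusted p under 0.05 and higher than in Gcg-only cells, as were 3.61% of all genes. Against Ins-only cells 0 were in either direction, beside 9.31% of all genes. The list medians were 0.81 and -0.03 log2. By set, the median against Gcg-only cells was -0.41 log2 at E11.5, -0.24 at E12.5 and 4.355 in E13.5 run 1, the latter from 1 double cell. It was 0.43 and 0.99 log2 in the E14.5 runs and 0.12 and 2.60 in the E15.5 runs. Pax4, a repressor that favours the beta over the alpha fate, had medians of 17.6 (6.80 without the wells that stand apart), 0 and 12.4 FPKM in double, Gcg-only and Ins-only cells and differed by 2.88 ± 0.90 log2 from Gcg-only cells (adjusted p = 0.923, limma). Neurog3 itself had a median of 1.29 FPKM in each class, close to the detection level of 1 FPKM. Without the wells that stand apart its median in double cells was 0. Its means were 57.5, 348 and 155 FPKM, and it differed by 1.57 ± 0.93 log2 from Gcg-only cells (adjusted p = 0.925, limma). From Ins-only cells it differed by -0.34 ± 0.86 log2 (adjusted p = 0.921, limma). Fev, a factor of later precursors, was at 1 FPKM or more in 8 of 17, 16 of 51 and 29 of 57 cells. The 14 endocrine factors had medians of 0.44 and 0.32 log2. Of them, Rfx6 had the largest difference from Gcg-only cells (1.86 ± 0.72 log2) and Mlxipl, a glucose-responsive factor, from Ins-only cells (-1.36 ± 0.60 log2; adjusted p = 0.923 and 0.494, limma).

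Genes of secretion and metabolism likewise gave no call (limma). The 23 tested granule genes had medians of -0.06 log2 against Gcg-only and 0.57 against Ins-only cells. Resp18, a granule protein, had medians of 322, 353 and 121 FPKM and differed by 2.88 ± 0.83 log2 from Ins-only cells (adjusted p = 0.215, limma). The 14 genes of glucose sensing had medians of 0.47 and -0.17 log2. The 17 genes of the unfolded protein response had medians of -0.01 and -0.46 log2, and Creld2, one of them, differed by -2.44 ± 0.73 log2 from Ins-only cells (adjusted p = 0.245, limma). The 20 tested cell cycle genes had medians of -0.17 and -0.01 log2. Of them, Pcna reached 10 FPKM in 9 of 17 double, 33 of 51 Gcg-only and 24 of 57 Ins-only cells. The 7 delta and epsilon genes had medians of 0.19 and 0.44 log2. Of them, Arg1, an arginase, differed by 3.26 ± 0.71 log2 from Ins-only cells (adjusted p = 0.0894, limma).

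By stage, the alpha median against Ins-only cells was 2.21 log2 at E12.5 and 0.07 in E13.5 run 1, with 1 double cell in each. It was 1.52 log2 in the first and 1.58 in the second run of E14.5, and 2.78 and 2.96 in those of E15.5. Against Gcg-only cells it had no common sign: it was -0.01 log2 at E11.5, 1.58 at E12.5, -1.08 in E13.5 run 1, -0.82 and -1.11 in the E14.5 runs and 0.13 and 0.66 in the E15.5 runs. The beta median against Gcg-only cells was 1.72 and 1.38 log2 in the E14.5 runs and 1.41 and 2.29 in the E15.5 runs, but 0, -0.10 and -0.48 in the sets of E11.5, E12.5 and E13.5. Against Ins-only cells it was 0 in E12.5 and E13.5 run 1, 0.11 and -1.30 log2 in the E14.5 runs and -1.52 and -0.75 in the E15.5 runs. The 3 double cells of E11.5 and E12.5 held 3 to 5 beta genes at 10 FPKM or more and 7 or 8 alpha genes, and no Pdx1. With E14.5 and E15.5 alone, Nnat passed against Gcg-only cells at 5.06 log2 (adjusted p = 0.0204, limma), and 7 genes passed against Ins-only cells. A difference between stages was not tested.

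The numbers of genes and fragments per cell were compared over sets. The set medians of genes detected averaged 6277 in double and 6196 in Gcg-only cells, a difference of 81.2 genes (exact sign-flip test over 7 sets, two-sided p = 0.844). Against Ins-only cells the means were 6299 and 5719, a difference of 580.3 genes (exact sign-flip test over 6 sets, two-sided p = 0.125, where the smallest possible is 0.0312). With a class threshold of 10 FPKM the latter difference was 1045 genes, higher in 8 of 8 sets (exact sign-flip test, two-sided p = 0.00781). Fragments differed by 0.13 and 0.24 log2 from Gcg-only and Ins-only cells (exact sign-flip tests, p = 0.641 and 0.438). These 4 p-values are unadjusted.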

How the data were processed

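The authors deposited FPKM values per gene and cell. TopHat2 2.0.13 and Cufflinks 2.2.0 with the mouse build mm10 are named per the submitters' processing notes, and both scale factors are 1 for all 721 cells per the labels; the annotation is not stated in those sources. Fragment counts per cell are the total mass per the labels, which round large totals. Kept cells had 101675 to 1990000 fragments (median 587177), and no interval was derived from FPKM. Counts per gene were not analysed here.

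The members and the 16 gene lists (220 entries) were chosen with earlier results of these data known. Named genes were up to 10 calls in each direction; of each list up to 3 members past the threshold or, with none, the one with the largest difference in each comparison; and 10 genes in every case (40 in all). A further 6 were named after their values were seen. Some of these genes are not reported here. Values were log-transformed before averaging over cells, because the log of a mean rises with the number of cells. Genes had a mean of at least 1 FPKM over hormone cells. limma 3.58.1 (R 4.3.3) fitted the 3 classes with the set as a block, a trend and weights by cell number (11 residual degrees of freedom; 37 Gcg-only cells entered, since the 14 of E13.5 run 2 had no double cell beside them). In simulated data on 14667 genes with normally distributed noise, changes were placed only in genes with a fitted mean log2 of at least 2. Of genes changed by 2 log2, 33% were recovered against Gcg-only and 34% against Ins-only cells. Of those changed by 4, 92% and 95% were recovered. Unchanged genes gave 7 and 10 false calls. Recovery among genes of lower level was not simulated. Alternatives changed weights, averaging, pseudocount, filter, scale, class threshold, block and cells.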

Additional observations from a re-analysis of the deposited data

How the results depend on the processing

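Against Gcg-only cells 1 gene was called instead of 0 with E14.5 and E15.5 alone, with at least 300000 fragments per cell and without the 4 wells that stand apart, and leaving out a set gave 0 to 1. Against Ins-only cells the 6 calls became 0 without weights, with the log of the mean, with no filter, with a class threshold of 1000 FPKM and with classes and values rescaled to equal sums; 1 with a pseudocount of 10; 3 with no replicate block; 11 with at least 2 double cells per set or without E12.5 run 1 and E13.5 run 1; 13 without the 4 wells; 14 with a pseudocount of 0.1; 19 with a filter of 5 FPKM; and 37 with a class threshold of 10 FPKM. The median of all genes against Ins-only cells moved from 0.18 to -0.21 log2 with the log of the mean and to 0.36 with a pseudocount of 0.1. Leaving out a set gave 0 (without either set of E15.5) to 21. The numbers in the labels name single wells and pair no cells across classes; classes were paired within sets, so the set is the replicate block, and the fit without it gave the 3 calls above. Over all settings the alpha median against Ins-only cells ranged from 1.12 to 2.63 log2, and the beta median from 0.51 to 1.57 against Gcg-only and from -1.42 to -0.38 against Ins-only cells. The alpha median against Gcg-only cells turned to 0.87 log2 at 10 FPKM and to 0.037 with day as the unit. The daily change of the double share turned to 1.52 points at 1000 FPKM and 0.77 over all kept cells, with a range of -3.29 to 3.14 when a set was left out. Genes detected against Gcg-only cells turned to -24 with rescaled classes and ranged from -160.8 to 253.7 when a set was left out; against Ins-only cells they rose to 1045 (p = 0.00781, exact sign-flip test) at 10 FPKM. Fragments turned to -0.0292 log2 against Gcg-only cells at 10 FPKM (-0.00602 to 0.332 when a set was left out) and to -0.0204 against Ins-only cells at 1000 FPKM. Among the other named genes, up to 19 uncalled differences changed sign under a setting. The rescaling and the 4-well alternatives were chosen after seeing the data. In simulated data 34% of differences of 2 log2 from Ins-only cells were recovered, so smaller ones were mostly out of reach. These differences were placed only in genes with a fitted mean log2 of at least 2.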
